A study of Mus musculus with 15 samples.

Results

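Founder genes of blood vessels and blood were followed in mouse embryonic stem (ES) cells. They comprise 10 members: the receptor genes Flt1, Kdr and Tek, the cell contact genes Cdh5, Esam, Pecam1 and Cldn5, the adaptor gene Nostrin, and the transcription factor genes Runx1 and Tal1. They were picked by gene name out of 31753 gene names on the array, and each was read by the probe of that name with the highest mean signal. All 10 passed the filter on dim probes, Cdh5 only through its retinoic acid arrays. The study, as far as its title states, asked how Phf19, a component of the histone-methylating Polycomb complex PRC2, ties a histone mark to Polycomb activity. It used total RNA from 15 samples, each hybridised alone to a 1-colour Agilent array. The labels give 4 groups, which share the ES cell source and the introduction of a hairpin: sh4 with 1 µM retinoic acid for 72 hours (3 arrays), shCTR with the same treatment (4 arrays), sh4 without retinoic acid (4 arrays) and shCTR without retinoic acid (4 arrays). The labels name neither the target of sh4 nor the ES cell line, and they give no time in culture for the untreated cells, so retinoic acid and the 72 hours of culture cannot be told apart. The samples are called biological replicates in the labels, with no word on separate cultures. The p-values set differences between groups against the spread between these samples.

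In the embryo, endothelial cells arise from mesoderm when vascular endothelial growth factor acts on the receptor Kdr, while its relative Flt1 binds the same ligands and often holds them back as a decoy. Junction proteins such as VE-cadherin (Cdh5) then join the cells into tubes, Tek receives angiopoietin signals, and Tal1 and Runx1 direct part of this lineage into blood. Several of these genes also work elsewhere: Pecam1 is well known on the surface of undifferentiated mouse ES cells, and Flt1 is made by trophoblast.

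Levels are the processed spot signal as a percent of the 75th percentile of the same array, and differences are log2 fold changes from limma's moderated test over all 15 arrays, given ± SE with Benjamini-Hochberg adjusted p over 25093 genes. A gene was called at an adjusted p of 0.05. Signal was well above background for 73.8% to 79.4% of the probes of an array, no spot was saturated, and the number of arrays limits the precision. Phf19 itself measured −0.88 (adjusted p = 1.9e-05) in sh4 against shCTR under retinoic acid and −1.73 (adjusted p = 7.3e-09) in untreated cells.

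Apart from Kdr, the 10 genes divided into those that were higher after retinoic acid and those that were lower. In sh4 cells Nostrin, Flt1, Cdh5 and Runx1 rose and Esam, Pecam1, Tal1, Tek and Cldn5 fell, that is 4 higher and 5 lower of 10, where 27.1% of all genes were called higher and 31.6% lower. In shCTR cells 5 of 10 rose and 4 fell, with 29.0% and 33.5% of all genes called in those directions. The gene that changed sides was Esam, which rose in shCTR cells. Under retinoic acid sh4 cells held less Cdh5, Esam, Flt1, Nostrin and Runx1 RNA than shCTR cells, 5 of 10 lower and 0 higher, where 10.3% of all genes were called lower and 10.9% higher. In untreated cells the hairpin gave 3 higher (Flt1, Esam, Tek) and 4 lower (Nostrin, Runx1, Tal1 and Cdh5, the last near background) against 14.4% and 14.1% of all genes. The median log2 fold change of the 10 was −0.66 under retinoic acid and −0.07 untreated, beside 0.04 and 0.02 over all genes. The 10 genes were chosen with earlier results of these data known, so the shares over all genes give scale and are no test of the set. In bulk RNA, fewer cells of a type and less RNA per cell cannot be told apart.

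**Figure D1:**
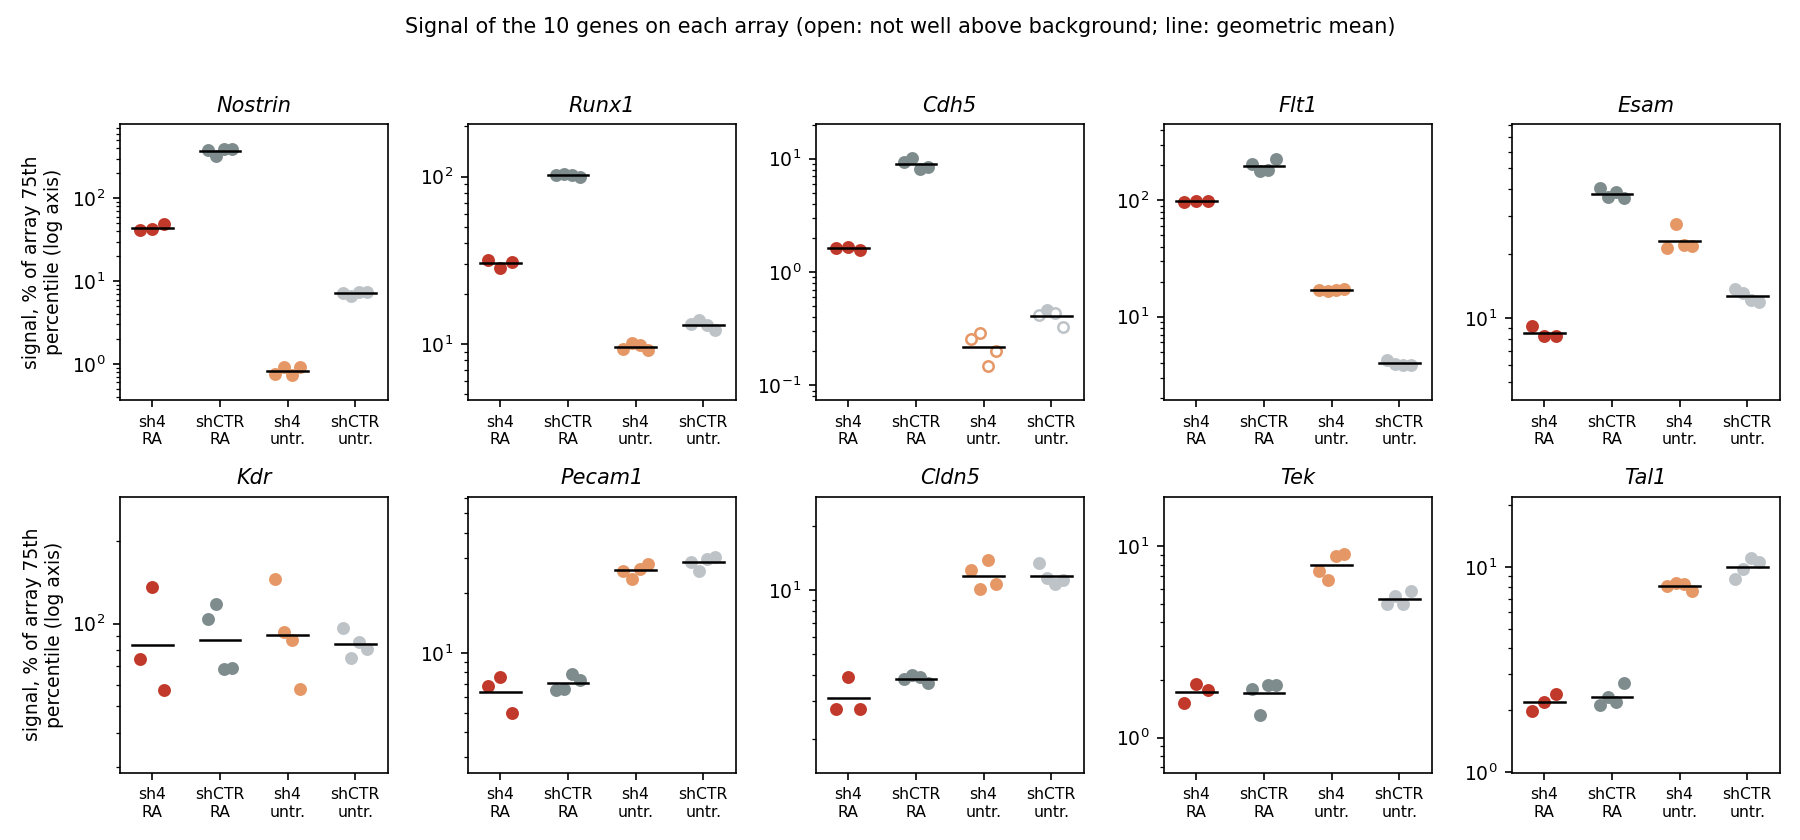
Signal of each gene on every array, as a percent of the array's 75th percentile on a log axis, with groups from left to right sh4 in retinoic acid, shCTR in retinoic acid, untreated sh4 and untreated shCTR. Points are arrays, open where the spot was not well above background, and lines are geometric means. In the upper row the shCTR retinoic acid arrays are the highest of all arrays for each of the 5 genes, and in the lower row all retinoic acid arrays of Pecam1, Cldn5, Tek and Tal1 lie under all untreated ones.

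The sequences just upstream of these genes are shown for 3 with wide changes, Nostrin, Flt1 and Runx1, and for Tek, which fell with retinoic acid, because Polycomb complexes in mammals are known to favour CpG-rich starts. Each run is the 250 bases before a RefSeq transcription start on GRCm38.p6, written 5′ to 3′ on the strand of the gene. Capitals mark matches on either strand to NGGAAG (the core bound by ETS factors), or, in Tek alone, to ATTGTT (SOX).
Nostrin, chr2:69135550-69135799, plus strand: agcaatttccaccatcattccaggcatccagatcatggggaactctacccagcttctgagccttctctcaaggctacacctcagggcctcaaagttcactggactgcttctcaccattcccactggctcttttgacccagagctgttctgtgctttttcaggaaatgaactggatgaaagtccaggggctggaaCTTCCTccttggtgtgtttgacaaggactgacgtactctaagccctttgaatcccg
Flt1, chr5:147726012-147726261, minus strand: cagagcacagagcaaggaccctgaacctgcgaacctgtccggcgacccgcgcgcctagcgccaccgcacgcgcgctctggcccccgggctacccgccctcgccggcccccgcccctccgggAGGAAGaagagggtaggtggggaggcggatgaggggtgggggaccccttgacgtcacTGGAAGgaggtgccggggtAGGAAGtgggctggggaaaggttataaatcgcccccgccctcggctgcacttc
Runx1, chr16:92826075-92826324, minus strand: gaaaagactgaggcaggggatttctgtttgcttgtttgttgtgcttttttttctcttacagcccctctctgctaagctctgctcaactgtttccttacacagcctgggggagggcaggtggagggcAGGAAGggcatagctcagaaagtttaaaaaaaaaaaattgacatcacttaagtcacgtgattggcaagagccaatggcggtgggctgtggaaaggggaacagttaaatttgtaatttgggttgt
Runx1, chr16:92697330-92697579, minus strand: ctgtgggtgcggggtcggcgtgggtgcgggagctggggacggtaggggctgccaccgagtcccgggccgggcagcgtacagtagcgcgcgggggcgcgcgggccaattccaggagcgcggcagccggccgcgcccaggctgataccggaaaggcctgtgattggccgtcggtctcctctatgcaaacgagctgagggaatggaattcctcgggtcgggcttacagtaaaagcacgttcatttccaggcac
Tek, chr4:94739039-94739288, plus strand: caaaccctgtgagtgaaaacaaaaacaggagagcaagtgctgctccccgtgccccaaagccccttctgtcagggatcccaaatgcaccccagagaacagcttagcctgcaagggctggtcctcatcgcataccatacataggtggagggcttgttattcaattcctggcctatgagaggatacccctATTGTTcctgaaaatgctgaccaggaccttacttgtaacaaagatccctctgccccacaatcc

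The windows differed in CpG content. Nostrin and Tek held 2 CpG dinucleotides each, Flt1 held 23, and the windows of Runx1 held 2 at chr16:92826075-92826324 and 27 at chr16:92697330-92697579. Over all 32851 windows of the table the quartiles were 2, 6 and 16. Kdr (16), Cldn5 (12) and Tal1 (6 and 16 at its pair of starts) lay between these extremes. Nostrin and Flt1, which both rose with retinoic acid in both hairpins, thus had one window at the lower quartile and the other above the upper quartile. The ETS letters occurred 3 times in Flt1, once each in Nostrin, Kdr and a Tal1 window, and once in the CpG-poor window of Runx1, and 63.9% of all windows held at least 1 match. The SOX letters of Tek were in 9.42% of all windows. Of the other letters searched, AGATAA for GATA factors (9.99% of all windows) occurred once in a Tal1 window and the E-box CAGATG (14.4%) once in Kdr, whereas the E-box CAGCTG (13%), TGTGGT for RUNX factors (14%) and the nuclear receptor core AGGTCA (14%) had no match in the 9 windows of the 7 genes that the table held. No motif overlapped another, and a match is a description of letters, not of binding.

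Flt1, the decoy-like receptor of vascular endothelial growth factor, measured 97.3, 98.4 and 99.0% in sh4 arrays with retinoic acid, and 205, 180, 184 and 226% in shCTR arrays with retinoic acid. In untreated cells it measured 17.1, 16.6, 17.1 and 17.2% in sh4 and 4.28, 3.92, 3.82 and 3.85% in shCTR. No groups overlapped, and the order of the hairpins turned round with treatment: sh4 was the lower one under retinoic acid and the higher one without it. The difference was −1.01 ± 0.08 (adjusted p = 1.0e-06) with retinoic acid and 2.10 ± 0.07 (adjusted p = 2.7e-10) untreated. The interaction, which is the hairpin effect under retinoic acid minus that without, was −3.11 ± 0.10 (adjusted p = 1.2e-09). Retinoic acid raised Flt1 5.77-fold in sh4 cells and 49.8-fold in shCTR cells. The Flt1 probe lies on the minus strand at chr5:148373791-148373850 in mm9, the build of the files' coordinates.

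Kdr, the main signalling receptor for vascular endothelial growth factor, had a pair of probes that disagreed. The brighter one, at chr5:76330395-76330454, measured 74.1, 136 and 57.3% in sh4 with retinoic acid, 104, 118, 68.6 and 68.8% in shCTR with retinoic acid, 145, 93.4, 87.0 and 57.9% in untreated sh4 and 96.6, 74.7, 86.0 and 81.1% in untreated shCTR. Its groups all overlapped, with a spread within groups wider than any difference between them, and none of the 5 comparisons passed (adjusted p 0.78 to 0.94). The dimmer probe, at chr5:76329309-76329368 and given to the same transcript by the files, measured 9.35, 9.61 and 8.75% in sh4 with retinoic acid and 12.1, 12.4, 12.4 and 11.8% in shCTR with retinoic acid. In untreated cells that probe read 1.70, 2.13, 1.77 and 1.81% in sh4 and 4.33, 4.24, 3.44 and 3.4% in shCTR. Its 4 groups did not overlap. On the dimmer probe Kdr rose with retinoic acid by 2.32 ± 0.10 in sh4 and 1.67 ± 0.09 in shCTR, and the difference of sh4 from shCTR was −0.40 ± 0.10 with retinoic acid (adjusted p = 0.012) and −1.05 ± 0.09 untreated (adjusted p = 1.5e-06). G and C made up 55.0% of the bases of the brighter probe and 35.0% of the dimmer one, where the median over all probes was 41.7%. The direction of Kdr therefore depends on the probe, and which of them follows the transcript was not tested.

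**Figure D2:**
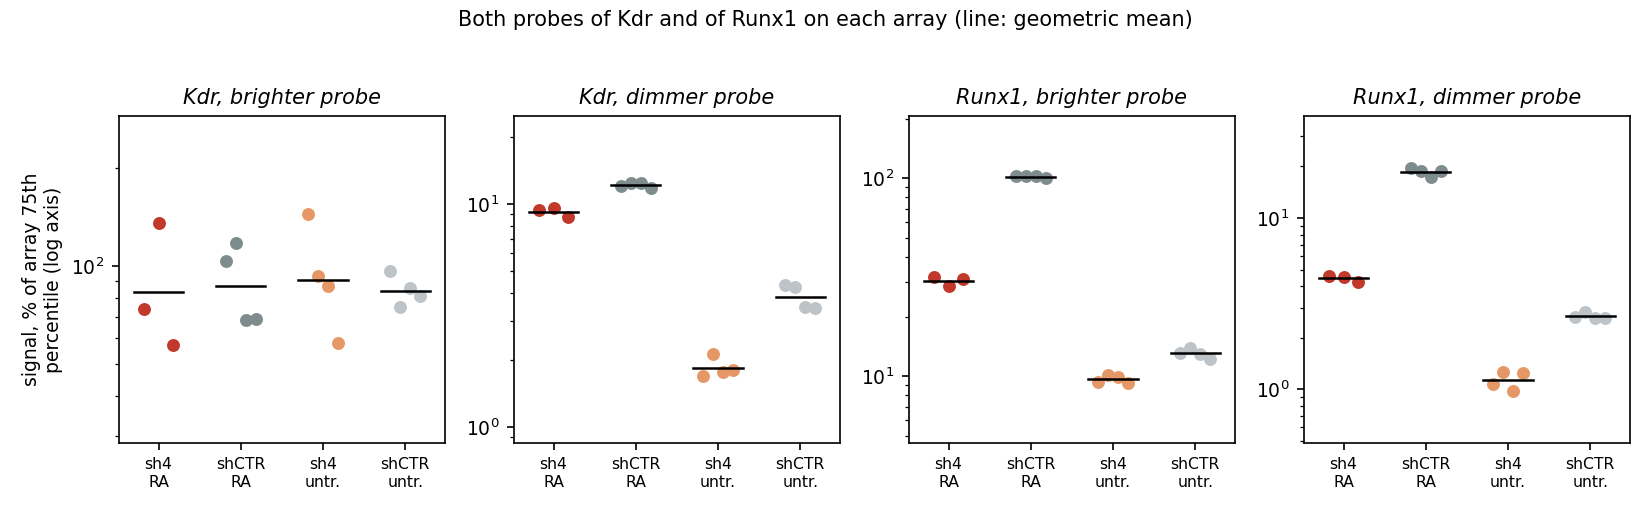
Both probes of Kdr and of Runx1 on every array, as a percent of the array's 75th percentile on log axes, groups from left to right sh4 in retinoic acid, shCTR in retinoic acid, untreated sh4 and untreated shCTR, lines at geometric means. The brighter Kdr probe shows overlapping groups, from 57.3 to 145%, while the dimmer Kdr probe and both Runx1 probes separate the groups.

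Tek, the angiopoietin receptor, fell with retinoic acid in both hairpins. It measured 1.51, 1.91 and 1.77% in sh4 with retinoic acid and 1.80, 1.31, 1.88 and 1.89% in shCTR with retinoic acid. Untreated arrays gave 7.44, 6.68, 8.85 and 9.09% in sh4 and 4.98, 5.50, 5.01 and 5.87% in shCTR. Every retinoic acid array was below every untreated one, and the log2 fold change was −2.21 ± 0.15 in sh4 (adjusted p = 1.6e-08) and −1.65 ± 0.13 in shCTR (adjusted p = 1.1e-07). The hairpins overlapped under retinoic acid (0.02 ± 0.15, adjusted p = 0.97), and in untreated cells Tek was higher in sh4 (0.58 ± 0.13, adjusted p = 5.1e-03), a call lost with normexp background correction (0.29, adjusted p = 0.066) and, at nearly the same size, with quantile normalisation (0.53, adjusted p = 0.076). The interaction of −0.56 ± 0.20 missed the threshold (adjusted p = 0.066) and passed it without shCTR retinoic acid replicate 2 (−0.69, adjusted p = 0.012) or without untreated sh4 replicate 2 (−0.65, adjusted p = 0.036).

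Cdh5, which encodes VE-cadherin, the adherens junction protein of endothelium, came above background with retinoic acid. It measured 1.62, 1.68 and 1.57% in sh4 with retinoic acid and 9.42, 10.1, 8.11 and 8.42% in shCTR with retinoic acid, with no overlap. The difference of −2.47 ± 0.19 (adjusted p = 1.2e-06) left sh4 cells at 18% of the shCTR level. Without retinoic acid the probe read 0.257, 0.291, 0.148 and 0.200% in sh4, where no array was well above background, and 0.419, 0.464, 0.434 and 0.330% in shCTR, where 1 array was. The untreated difference passed the test (adjusted p = 1.5e-03), but with only 1 of these arrays well above background no fold is given for it, and it did not pass on the authors' deposited log2 values (adjusted p = 0.47). Retinoic acid raised Cdh5 in sh4 cells, with a floored fold of 6.36. A floored fold gives each dim array its own reading or, if larger, the faintest signal the scanner software marked on it as above background. That faintest signal was 0.116 to 0.406% over the arrays, yet Cdh5 at 0.419 and 0.434% was not marked. A floored fold is therefore no strict lower limit, and the adjusted p belongs to the fitted change, not to the floored fold. The rise in shCTR cells (adjusted p = 6.6e-11) and the interaction (−1.56 ± 0.26, adjusted p = 8.3e-04) rest on the same dim untreated arrays. Cdh5 passed the filter on dim probes only through its retinoic acid arrays, so its rise in either hairpin is not independent of it. On the authors' deposited log2 values the rise in shCTR was 1.52, where the processed signal gave 4.46 ± 0.18, the interaction was −1.08, and the difference under retinoic acid was −1.15.

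Esam, an adhesion molecule of endothelial tight junctions, moved in opposite directions in the hairpins. With retinoic acid it measured 9.12, 8.24 and 8.23% in sh4 and 40.3, 36.8, 39.0 and 36.5% in shCTR. Without it the arrays gave 21.2, 27.4, 21.9 and 21.7% in sh4 and 13.7, 13.1, 12.1 and 11.9% in shCTR. The 4 groups did not overlap: untreated sh4 was above untreated shCTR, and under retinoic acid sh4 was the lowest group and shCTR the highest. Retinoic acid lowered Esam in sh4 cells (−1.43 ± 0.09, adjusted p = 1.3e-08) and raised it in shCTR cells (1.58 ± 0.09, adjusted p = 1.5e-09), and the interaction was −3.01 ± 0.13 (adjusted p = 7.0e-09). The hairpin difference was −2.16 ± 0.09 (adjusted p = 5.0e-09) with retinoic acid and 0.85 ± 0.09 (adjusted p = 4.6e-06) untreated. Within slides the interaction ranged from −3.22 to −2.77 on the 3 slides that held all 4 groups.

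Pecam1, an adhesion molecule of endothelium and of ES cells, fell to 6.85, 7.56 and 5.02% in sh4 with retinoic acid, against 25.9, 23.6, 26.5 and 28.0% in untreated sh4. In shCTR it stood at 6.50, 6.61, 7.87 and 7.35% with retinoic acid, against 28.5, 25.9, 29.7 and 30.4% untreated. The log2 fold change was −2.02 in either hairpin (SE 0.13 in sh4 and 0.12 in shCTR), and the hairpins overlapped in both conditions (adjusted p = 0.52 with retinoic acid and 0.47 untreated). Cldn5, a claudin that seals endothelial tight junctions, went the same way: it measured 2.76, 3.92 and 2.76% in sh4 with retinoic acid, 3.82, 3.97, 3.89 and 3.64% in shCTR with retinoic acid, 12.5, 10.1, 13.8 and 10.7% in untreated sh4 and 13.4, 11.4, 10.7 and 11.2% in untreated shCTR. Its log2 fold changes with retinoic acid were −1.91 ± 0.14 in sh4 and −1.60 ± 0.13 in shCTR, with overlapping hairpins in both conditions. Cldn5 differed between hairpins under retinoic acid only when sh4 retinoic acid replicate 3 was left out (−0.47, adjusted p = 0.020, against −0.30, adjusted p = 0.15, with it).

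Nostrin, an adaptor that binds endothelial nitric oxide synthase and guides its traffic, had the widest hairpin difference of the 10 genes under retinoic acid, and also untreated on the processed signal, though not on the authors' deposited values (−1.20, against 1.46 for Flt1). It measured 42.0, 42.4 and 49.2% in sh4 with retinoic acid and 388, 328, 394 and 391% in shCTR with retinoic acid. Untreated arrays gave 0.75, 0.913, 0.728 and 0.919% in sh4 and 7.25, 6.65, 7.39 and 7.34% in shCTR. All arrays were well above background and no groups overlapped. Expression in sh4 was 11.9% of that in shCTR with retinoic acid (−3.07 ± 0.10, adjusted p = 8.5e-10) and 11.5% untreated (−3.12 ± 0.10, adjusted p = 1.1e-10). Retinoic acid raised Nostrin 54.0-fold in sh4 and 52.3-fold in shCTR, with an interaction of 0.04 ± 0.14 (adjusted p = 0.91). That interaction turned to −1.85 (adjusted p = 6.5e-08) on the authors' deposited log2 values, on which the untreated difference was −1.20 and the difference under retinoic acid −3.04. Those values rest on normexp background correction, which adds an offset of 50 intensity units, whereas the processed signal of Nostrin in untreated sh4 was 11.1 to 17.6 units. The Nostrin probe spans chr2:69018945-69020911 in mm9, longer than its 60 bases.

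**Figure D3:**
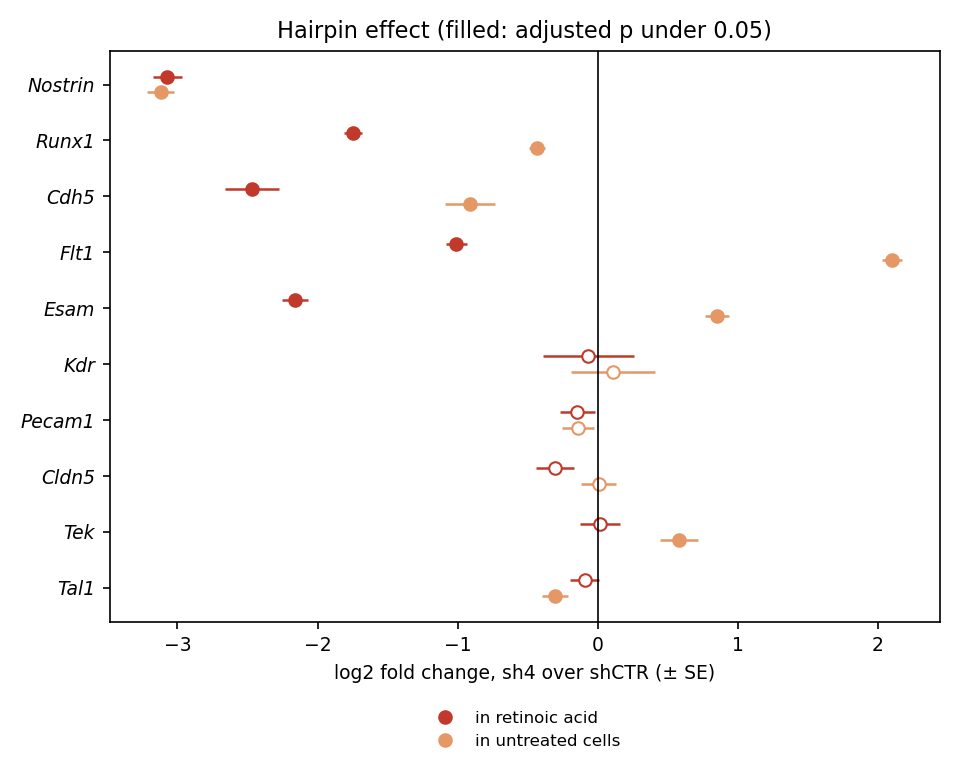
Difference between sh4 and shCTR for each gene, as log2 fold change ± SE from limma, with the upper point of each pair for retinoic acid and the lower for untreated cells, filled where the adjusted p was under 0.05. Nostrin lies near −3 in both conditions, Flt1 and Esam are on opposite sides of 0, and the retinoic acid points of Kdr, Pecam1, Cldn5, Tek and Tal1 are open.

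Runx1, the transcription factor that turns hemogenic endothelium into blood in the mouse, measured 31.7, 28.5 and 30.8% in sh4 with retinoic acid and 102, 103, 102 and 100% in shCTR with retinoic acid. Without retinoic acid it measured 9.37, 10.1, 9.89 and 9.22% in sh4 and 13.1, 13.9, 13 and 12.2% in shCTR. The groups did not overlap, and sh4 was the lower hairpin in both conditions. The difference was −1.75 ± 0.06 (adjusted p = 1.2e-09) with retinoic acid and −0.44 ± 0.06 (adjusted p = 5.3e-05) untreated, and the interaction was −1.31 ± 0.08 (adjusted p = 2.3e-07). Retinoic acid raised Runx1 by 1.65 ± 0.06 in sh4 and by 2.96 ± 0.06 in shCTR. A second Runx1 probe, at chr16:92604413-92604472 in mm9 against chr16:92605785-92605844 for the first, gave the same directions, with −2.07 ± 0.09 under retinoic acid, −1.24 ± 0.08 untreated and an interaction of −0.83 ± 0.12. The probes thus agreed on direction while the untreated difference was wider on the second.

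Tal1, the master regulator of blood specification, measured 1.98, 2.19 and 2.40% in sh4 with retinoic acid, 2.13, 2.32, 2.19 and 2.70% in shCTR with retinoic acid, 8.02, 8.34, 8.24 and 7.66% in untreated sh4 and 8.67, 9.76, 11 and 10.6% in untreated shCTR. Every retinoic acid array was below every untreated one. Tal1 fell with retinoic acid in both hairpins, with log2 fold changes of −1.88 ± 0.10 in sh4 (adjusted p = 2.1e-09) and −2.10 ± 0.09 in shCTR (adjusted p = 2.3e-10). The hairpins overlapped under retinoic acid (−0.09 ± 0.10, adjusted p = 0.65). In untreated cells every sh4 array was lower (−0.31 ± 0.09, adjusted p = 0.027), a call that was lost in 7 alternatives, among them leaving out untreated sh4 replicate 1 or 4 or untreated shCTR replicate 3 or 4 (adjusted p 0.054 to 0.085), which gave differences of −0.30 to −0.26. Of the factors that direct the start of blood, Runx1 was thus higher with retinoic acid and Tal1 lower.

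**Figure D4:**
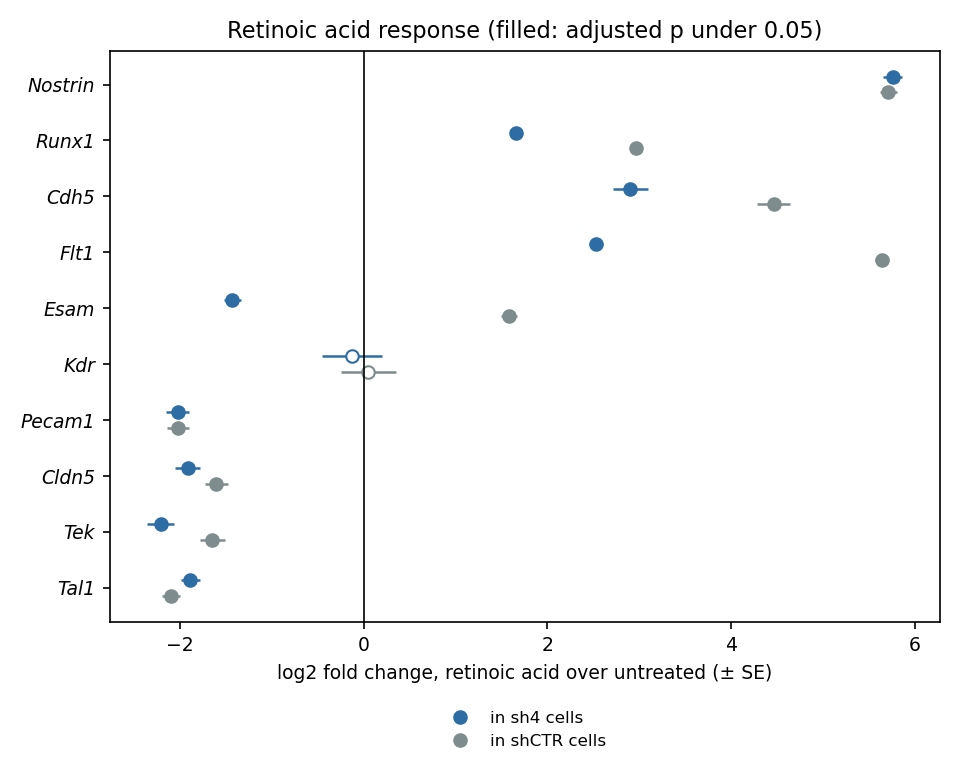
Response to retinoic acid for each gene, as log2 fold change ± SE of retinoic acid over untreated cells, upper point of each pair sh4 and lower point shCTR, filled where the adjusted p was under 0.05. Nostrin coincides in both hairpins near 5.7, Flt1, Cdh5 and Runx1 rise further in shCTR, and Esam is on opposite sides of 0 (−1.43 in sh4 and 1.58 in shCTR).

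The test of the difference between hairpins in the response to retinoic acid was passed by 4 of 10 genes, Flt1, Esam, Runx1 and the dimly measured Cdh5, all with a lower response in sh4, and by 0 in the other direction, where 10.2% of all genes were called lower and 10.2% higher. With slide as a block the counts of called genes were the same in all 5 comparisons. Across the 15 arrays Cdh5 followed Runx1 (r = 0.993) and Pecam1 followed Cldn5 (r = 0.981) and Tal1 (r = 0.979), while the brighter Kdr probe followed none (−0.07 to 0.16). These values describe 4 groups of arrays more than 15 independent points. Of all genes tested, those most like Runx1 over the arrays were Gata4 (r = 0.999), Ihh and Col4a1, those most like Cdh5 were Klb, Gata4 and Runx1, and those most like Nostrin were Gm9720, Sox7 and Srgn. Flt1 was closest to Arap2, Plac1 and Lsr.

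Gata4 and Sox7 belong to the markers of primitive and visceral endoderm, which were lower in sh4 under retinoic acid as the 5 called genes were. In that comparison 18 of 18 such markers were lower (median −2.33), where 10.3% of all genes were, with a summed level of 13900 to 14900% in sh4 and 33500 to 35500% in shCTR. Hnf4a (−3.51), Ttr (−3.41) and Cubn (−2.99) had the widest differences. In untreated cells Flt1, Esam and Tek were higher in sh4, and Nostrin, Runx1, Tal1 and the dim Cdh5 lower. Of the 18 markers 11 were lower there and 2 higher (14.1% and 14.4% of all genes), with sums of 3980 to 4540% in sh4 and 5130 to 5710% in shCTR. Most of the sum in each group came from Sparc and Lama1, untreated at 2980 and 667% in sh4 and 3200 and 1790% in shCTR (geometric means). Sparc did not differ between untreated hairpins (adjusted p = 0.33), and Ttr was well above background on no untreated array. Retinoic acid raised 15 of 18 in sh4 cells and 18 of 18 in shCTR cells, where 27.1% and 29.0% of all genes rose. Of the 10 genes 4 rose and 5, Esam among them, fell in sh4 cells, and 5 rose and 4 fell in shCTR cells. Of the trophectoderm markers 9 of 11 were higher in untreated sh4 cells, as Flt1, Esam and Tek were, where 14.4% of all genes were. Cdx2 (4.16) and Krt7 (4.02) were among these markers. Their summed level was 7930 to 8990% in untreated sh4 and 981 to 1160% in untreated shCTR. Most of the sh4 sum came from Krt18 and Krt8 (geometric means 4930 and 2550%). Under retinoic acid 4 of 11 were higher and 3 lower, where 10.9% and 10.3% of all genes were. ES cell markers fell with retinoic acid as Pecam1, Tek, Cldn5 and Tal1 did, 11 of 12 in sh4 and 12 of 12 in shCTR (31.6% and 33.5% of all genes), with sums of 1910 to 2580% in sh4 with retinoic acid, 3120 to 3230% in shCTR with retinoic acid, 26000 to 27900% in untreated sh4 and 33300 to 36500% in untreated shCTR. Trophectoderm markers also rose with retinoic acid, 7 of 11 in sh4 (4 fell) and 9 of 11 in shCTR (2 fell). Of 10 fibroblast markers 9 rose and 1 fell in either hairpin. Of 9 early mesoderm markers 5 rose and 4 fell in sh4, and 5 rose and 2 fell in shCTR. Among all genes 27.1% rose and 31.6% fell in sh4, and 29.0% rose and 33.5% fell in shCTR. The part of these cell types in the values of the 10 genes was not tested.

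Wider lists of vascular and blood genes were counted for the same comparison of hairpins under retinoic acid. Of 13 ligands 4 were higher in sh4 and 2 lower, of 17 receptors 1 was higher and 4 lower, of 22 junction and surface genes 1 was higher and 6 lower, of 36 transcription factors 4 were higher and 8 lower, and of 15 blood cell genes 0 were higher and 3 lower. Fli1, of the 8 transcription factors, and Hba-x, of the 3 blood cell genes, passed the filter on dim probes only through shCTR with retinoic acid. The shares over all genes were 10.9% higher and 10.3% lower. Median log2 differences in these lists lay between −0.15 and 0.18, beside 0.04 over all genes. The angiopoietins that bind Tek split. The activator Angpt1 was higher in sh4 (0.79, adjusted p = 0.026). The context-dependent antagonist Angpt2 (−0.82, adjusted p = 2.7e-06) and a further angiopoietin, Angpt4 (−1.12, adjusted p = 0.008), were lower. Vegfa, the main ligand of Kdr and Flt1, measured −0.08 (adjusted p = 0.75) and its relative Pgf 0.43 (adjusted p = 0.11). Of the partner receptors, Tie1 measured −0.22 (adjusted p = 0.72) and Flt4 −0.15 (adjusted p = 0.26). Nos3, the synthase that Nostrin binds, was −0.37 (adjusted p = 0.042).

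Among the transcription factors under retinoic acid, Sox7 (−2.51) and Sox17 (−1.27), which act in both endothelium and primitive endoderm, were lower in sh4, as was Fli1, an ETS factor (−1.47, adjusted p = 1.4e-04), well above background on 1 of 3 sh4 arrays and 4 of 4 shCTR arrays. Etv2, the ETS factor at the start of the endothelial lineage, measured −0.17 (adjusted p = 0.18), and Lmo2, a partner of Tal1, −0.05 (adjusted p = 0.80). Gata2 was higher in sh4 (0.47, adjusted p = 7.4e-04), as was Cbfb, the partner of Runx1 (0.25, adjusted p = 0.025). Hba-x, an embryonic globin gene, was lower in sh4 by a floored fold of 2.77, with no sh4 array well above background (adjusted p of the fitted change 1.3e-03). Hba-x passed the filter on dim probes only through shCTR with retinoic acid, with 3 of 4 arrays well above background. Fli1 also passed only through that group, so for either gene the difference is not independent of the filter. In untreated cells Gata2 (1.18, adjusted p = 4.6e-08), Etv2 (0.34, adjusted p = 4.0e-03) and Cbfb (0.23, adjusted p = 0.019) were higher in sh4. Lower there were Sox7 (−2.05), Sox17 (−1.88), Tie1 (−1.40), Nos3 (−1.22), Vegfa (−0.67), Flt4 (−0.57), Lmo2 (−0.40) and Angpt2 (−0.38). Pgf did not pass (adjusted p = 0.96), nor did Angpt1 (adjusted p = 0.45), which was well above background on no untreated array.

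**Figure D5:**
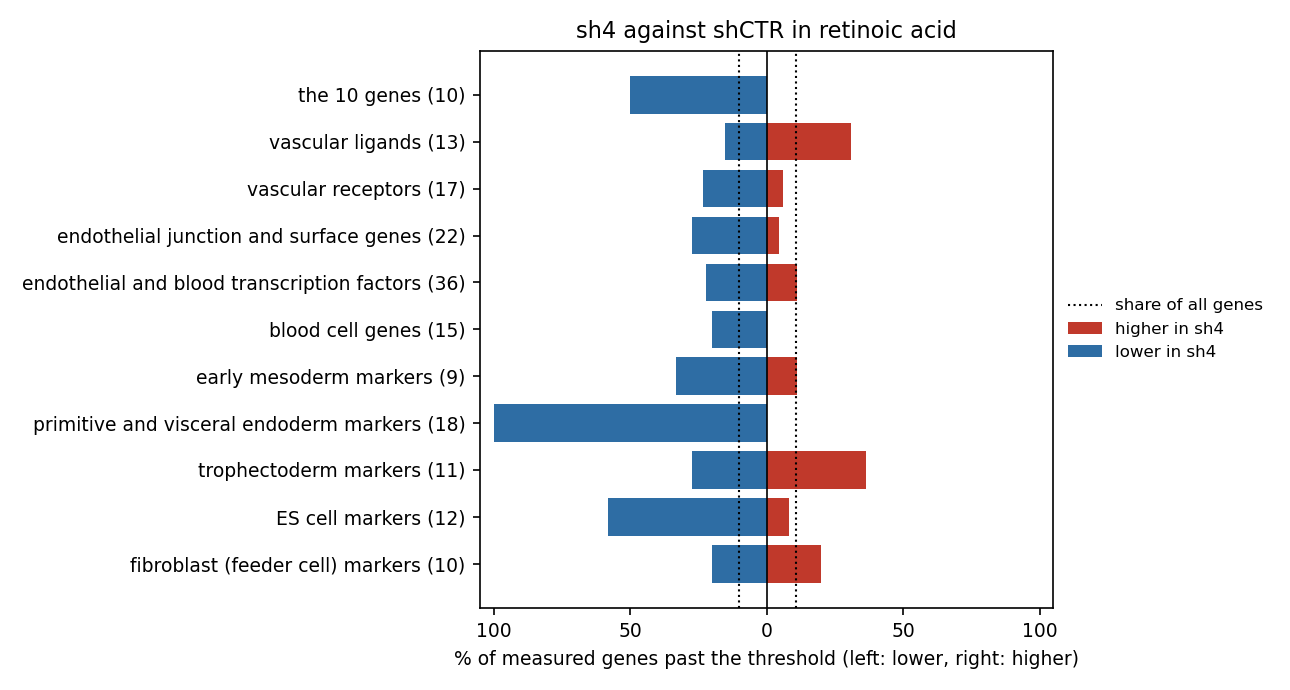
Share of the measured genes of each list called in sh4 against shCTR under retinoic acid, lower to the left and higher to the right, with the number of measured genes in parentheses and dotted lines at the share of all genes (10.3% lower and 10.9% higher). The 10 genes have bars to the left only, as do the 18 endoderm markers and the 15 blood cell genes.

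The label of an endothelial and blood set was held against other genes of endothelium and blood, which moved in both directions with retinoic acid. Of 22 junction and surface genes 9 rose and 8 fell in sh4, and 11 rose and 8 fell in shCTR. Of 17 receptors 7 rose and 4 fell in sh4, and 8 rose and 5 fell in shCTR, and of 36 transcription factors 18 rose and 13 fell in either hairpin. Of 15 blood cell genes 5 rose and 2 fell in sh4, and 4 rose and 3 fell in shCTR, the rest not called. Among all genes 27.1% rose and 31.6% fell in sh4, and 29.0% rose and 33.5% fell in shCTR. Vwf, the clotting factor stored in endothelium (−4.64 in sh4 and −4.39 in shCTR), and the guidance receptor gene Robo4 (−4.07 in sh4 and −3.68 in shCTR) fell. Thbd, the anticoagulant receptor thrombomodulin (2.77 in sh4 and 4.42 in shCTR), rose. So did Esm1 (floored folds of 8.90 in sh4 and 4.71 in shCTR) and Nrp1, a co-receptor of vascular endothelial growth factor (floored folds of 65.6 in sh4 and 49.2 in shCTR). Esm1 and Nrp1 were well above background on no untreated array, so they passed the filter on dim probes only through retinoic acid arrays. Sox7 (3.78 in sh4 and 4.24 in shCTR) and Sox17 (4.59 in sh4 and 3.98 in shCTR) rose, and Nos3 fell (−1.63 in sh4 and −2.48 in shCTR). Erg and Emcn did not pass the filter on dim probes.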

How the data were processed

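Total RNA, 500 ng per sample, was labelled with Cy3, per the labels' protocols. Each deposited scanner file holds spot intensity values from Feature Extraction 10.7.3.1, per the file headers. Its processed signal is background-subtracted and not scaled between arrays. A second deposited file of the authors holds log2 values and equals normexp correction (offset 50) followed by quantile normalisation, with a median absolute difference of 3.4e-10. Its making is not described in the labels, and it served as an alternative.

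Uneven or outlying spots were left out, spots of a probe were averaged, and 117 of 39429 probes were dropped. The log2 processed signal minus each array's 75th percentile was used. A gene was kept where 3 or more arrays of 1 group had its probe well above background, which left 25093 of 31753 names. A gene that reached this only in some groups entered through the groups where it was high. Its difference from the other groups is therefore not independent of the filter. One limma model (3.58.1, R 4.3.3) of the 4 groups gave 5 comparisons, two-sided, with Benjamini-Hochberg adjustment over all genes. The procedure was tested on simulated data. Accessions of 26055 probes matched RefSeq, used for names and promoter windows on GRCm38.p6. Probe positions are on mm9, and where in its gene a probe lies was not analysed here.

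The 10 genes, the lists and the tests were chosen with earlier results of these data known. Named were the 10 genes, a set of partner genes, and from each list at most 6 genes called with an absolute log2 fold change of at least 1, of which the text gives a few. Genes most like a member are the 3 with the highest Pearson correlation over the arrays.

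Arrays of 1 replicate number correlated in their deviations from group means at r of −0.533 to 0.578 (21 pairs), and arrays of 1 slide at 0.115 to 0.607 (21 pairs), so the numbers were not taken to pair samples and slide was tried as a block. Slide 4 of 4 held no sh4 array with retinoic acid. The scanner software rated 3 arrays for evaluation, which were kept.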

Additional observations from a re-analysis of the deposited data

Results flagged for a closer look

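Within groups of 4 arrays, 3 of the 30 groups examined held an array far from the other 3 relative to the group's range. They were Esam in an untreated sh4 array at 27.4% of the 75th percentile, Tek in a retinoic acid shCTR array at 1.31% and Nostrin in a retinoic acid shCTR array at 328%. Such a test marks about 1 in 20 groups by chance. The hairpin effect differed between retinoic acid and untreated cells, on the log2 scale, for Cdh5 (−1.56, with 1 of its untreated arrays well above background and −1.08 on the authors' deposited log2 values), Esam (−3.01), Flt1 (−3.11) and Runx1 (−1.31, and −0.829 on its second probe), and for the dimmer probe of Kdr (0.65). Among partner and listed genes it differed for Vegfa (0.588), Angpt2 (−0.448), Tie1 (1.18), Flt4 (0.425), Etv2 (−0.514), Gata2 (−0.707), Lmo2 (0.35), Sox7 (−0.459), Sox17 (0.609), Nos3 (0.855), Phf19 (0.848), Gata4 (−1.69), Fli1 (−1.42) and Hba-x (−1.56). Fli1 was well above background on no untreated array, and Hba-x on no array outside shCTR with retinoic acid, so their fitted values rest on dim readings. Both genes passed the filter on dim probes only through shCTR with retinoic acid.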

How the results depend on the processing

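Over the alternatives run, the number of the 10 genes called was 4 to 6 for sh4 against shCTR with retinoic acid and 4 to 8 untreated, 8 to 10 for retinoic acid in either hairpin, and 3 to 5 for the interaction. With only probes well above background on all arrays, Cdh5 was not tested. The lower ends 4 with retinoic acid, 8 and 3 came from that setting. In those comparisons no gene called in the main fit lost its call where it was tested. Leaving out each replicate in turn gave 5 to 6, 6 to 7, 9 in either hairpin, and 4 to 5. With normexp background correction 4 genes were called in untreated cells (2 higher, 2 lower) instead of 7, and 4639, 3392 and 3048 of all genes were called in the comparison of hairpins untreated, with retinoic acid and in the interaction, instead of 7165, 5325 and 5132. Under that correction Cdh5 (−0.25, adjusted p = 0.26), Tek (0.29) and Tal1 (−0.28) lost their untreated calls. The Nostrin interaction, not called in the main fit, was called at −1.70 (adjusted p = 2.1e-06). It was −1.85 with quantile normalisation added and in the authors' table. That correction adds 50 units to every signal, which narrows changes of dim probes by construction: Cdh5 rose with retinoic acid by 0.43 in sh4 and 1.52 in shCTR in the authors' table, the untreated difference of Flt1 was 1.46, and the retinoic acid responses in sh4 of Cldn5, Tek and Tal1 were −1.24, −1.12 and −0.92. In that table no call was lost other than that of Cdh5 in untreated cells. Averaging both Kdr probes gave calls that the main fit lacked. Among them were an untreated difference of −0.47 (adjusted p = 0.047) and a retinoic acid response in sh4 of 1.10 (adjusted p = 1.0e-04). For these the dimmer probe alone, an alternative added after seeing the data, gave −1.05 and 2.32, with an interaction of 0.65. Without the 3 arrays rated for evaluation, also added later, Tal1 lost its untreated call (−0.33, adjusted p = 0.068). With the replicate number as a block (replicate block) Tek passed the interaction (−0.63, adjusted p = 0.014), which made 5 genes, and the counts in the other comparisons were 5, 7, 9 and 9 as without it. For dim probes such as Cdh5 in untreated cells, signal over background limits what can be measured.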
